A study of Mus musculus with 14 samples.

Results

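Heterotrimeric G proteins and the RGS proteins that switch them off were followed in ribosome-bound RNA of POMC neurons. The members were chosen by a rule on gene symbols, set with earlier results of these data known. It takes the protein-coding genes named Gna, Gnb, Gng or Rgs with a number or letter. Of the 44672 genes of the authors' table, 54 met this rule. They comprised 16 Gα genes, 5 Gβ genes, 12 Gγ genes and 21 Rgs genes. Both mouse lines were random-fed and 12 weeks old. They were heterozygous for a POMC BAC transgene that drives Dre, for a Cre driver and for the ROSA26lSlrSrEGFPL10a allele. This allele makes EGFP-tagged ribosomal protein L10a only in cells that carry both recombinases. POMCGlp1r+ neurons (genotype POMCDre+/- Glp1rCre+/- ROSA26lSlrSrEGFPL10a+/-) were profiled in 3 pools of 12 mice and POMCLepr+ neurons (POMCDre+/- LeprCre+/- ROSA26lSlrSrEGFPL10a+/-) in 4 pools of 6 mice, 6 and 3 of them male. Each of the 7 pools gave an anti-EGFP immunoprecipitate (IP) and an input library. The input is described as whole hypothalamus in the study's methods and as arcuate nucleus in the series record, so the tissue behind each ratio is not settled.

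A heterotrimeric G protein couples a seven-transmembrane receptor to effectors inside the cell. The receptor makes the Gα subunit exchange GDP for GTP, Gα-GTP and the Gβγ dimer then act on enzymes and channels, and RGS proteins speed up GTP hydrolysis and so end the signal. Gαs stimulates adenylyl cyclase, Gαi and Gαo inhibit it and release Gβγ, and Gαq and its relatives stimulate phospholipase C. Gna12 and Gna13 form a further class. In POMC neurons such receptors receive peptides and transmitters, among them NPY, opioids, serotonin and GLP-1.

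The value given for each gene is the authors' mean of the IP/input ratio over all 7 pools, both lines together. In a single pool, a ratio above 1 means more reads in IP than in input. The mean over the 7 pools can exceed 1 with fewer IP than input reads in all, since rises move it more than falls of equal fold. The words above input stand for a mean ratio above 1. The file holds no value of a single pool, so no spread between pools could be computed, no ratio carries an error, no test was made, and neighbours in any order given here cannot be shown to differ. A mean above 1 needs only 1 pool above input. The POMCGlp1r+ and POMCLepr+ lines enter with weights of 3 and 4 pools, and their difference was not analysed here. Read depth is unknown. The ratios compare a gene with itself in input and do not give its abundance, and in such bulk samples fewer cells of a type and less RNA per cell cannot be told apart.

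The pulldown itself was checked on marker genes. Pomc had a mean IP/input ratio of 172, and all 6 POMC neuron markers were above input, down to Isl1 at 3.08. All 10 astrocyte and all 10 oligodendrocyte markers were below input, with ratios from 0.326 to 0.558 and from 0.406 to 0.556. Of 10 microglia markers 9 were below input and Trem2 was at 1.15, and of 12 endothelial and mural markers 5 were above input, up to Pecam1 at 1.55. Of 12 pan-neuronal markers 10 were above input, and 2 were below, Syt1 at 0.775 and Map2 at 0.571. The median of the 12 was 1.30.

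Of the 54 G protein and Rgs genes, 35 were above input, 17 were below and 2 were at exactly 1, against 53.9% above and 32.4% below among all 21290 protein-coding genes. The shares of the members were 64.8% above and 31.5% below. Exactly 1 was the ratio of 13.7% of all protein-coding genes but of 3.70% of the members. The shares of all protein-coding genes are therefore lowered more than those of the members. Among the 18379 protein-coding genes not at exactly 1, 11474 were above input and 6905 below. The median ratio of the members was 1.24, against 1.05 for all protein-coding genes. With genes at exactly 1 left out of both, the medians were closer, at 1.26 and 1.14. At least 1.5-fold above input were 16 members, or 29.6%, against a background of 20.5%. As far below input, at a ratio of 0.667 or less, were 8 members, or 14.8%, against 9.98%. None came near the ratios of the POMC markers Pomc, Cartpt, Prdm12 and Tbx3, which stood at 172, 32.5, 30.2 and 20.4. The lower POMC markers, Nhlh2 at 3.98 and Isl1 at 3.08, were exceeded by Gnb3 at 5.45. Rgs1, at 3.09, lay just above Isl1. The ratios were not corrected for library depth, and the median protein-coding gene whose ratio was not exactly 1 stood at 1.14, a shift of 0.19 on the log2 scale. Relative to that gene 28 members, or 51.9%, were higher, against 43% of all protein-coding genes. The 43% counts the genes at exactly 1, all of them below that gene. Of the 18379 genes whose median it is, 9153 were higher, by construction. Of the 35 members above input, 7 lay between 1 and 1.14, namely Gnaq, Gnb4, Gng5, Gng7, Rgs3, Rgs9 and Rgs18.

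**Figure D1:**
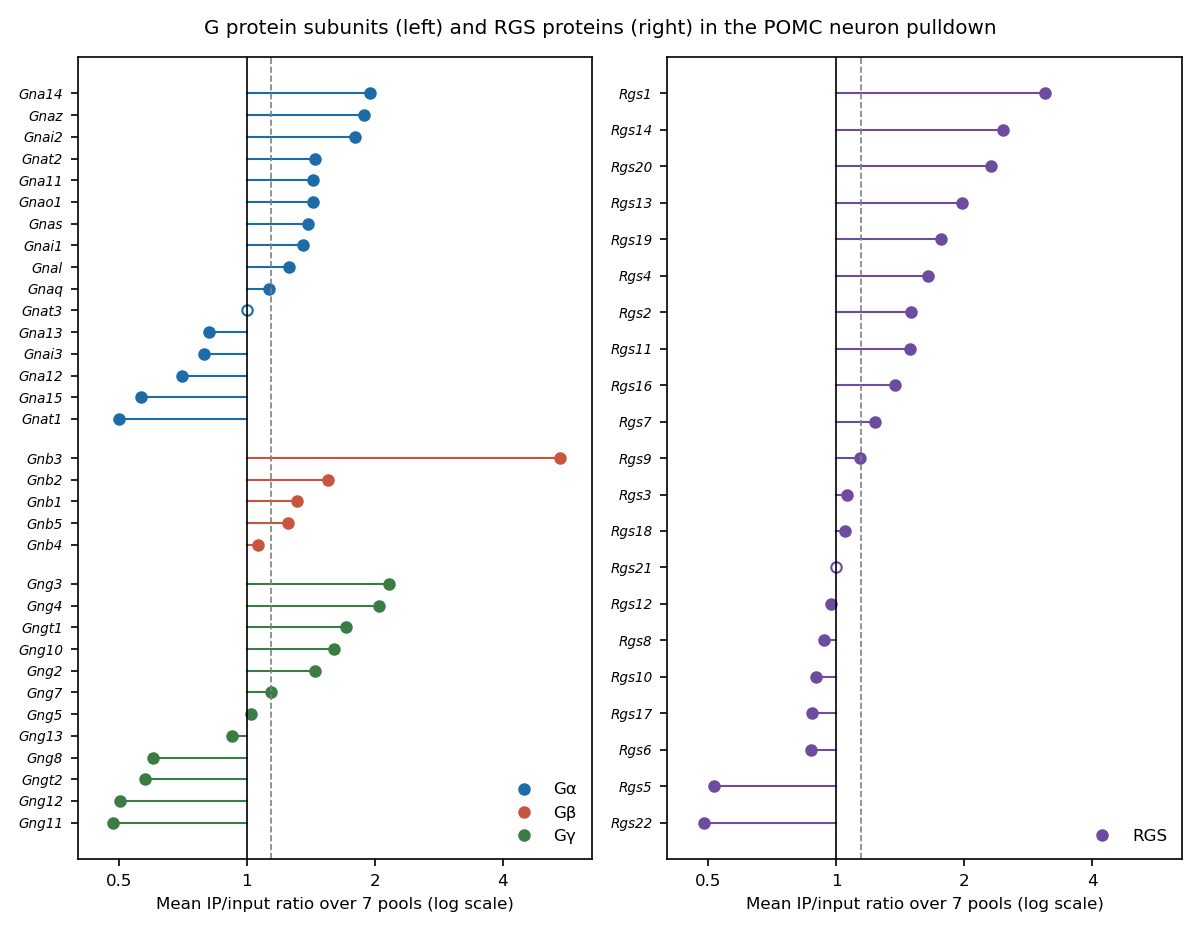
Mean IP/input ratio (log scale) of each of the 54 genes over 7 pools, with G protein subunits on the left and RGS proteins on the right. Lines start at a ratio of 1 (solid vertical line), the dashed line is the median protein-coding gene at 1.14, and open circles mark the 2 genes at exactly 1. All 5 Gβ genes lie above input and Gnb3, at 5.45, lies furthest right.

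Among the Gα subunits, 10 of 16 genes were above input, 5 were below and Gnat3, the gustducin of taste cells, was at exactly 1. The share above input was 62.5%, against 53.9% of all protein-coding genes. Exactly 1 was the ratio of 6.25% of the Gα genes but of 13.7% of all protein-coding genes, which lowers the 53.9% more. The highest were Gna14 at 1.95, Gnaz at 1.89 and Gnai2 at 1.80. Gna14 encodes a relative of Gαq, Gnaz a pertussis toxin-insensitive Gαi relative found mainly in neurons, and Gnai2 a widely expressed Gαi. Gna14 was higher than 90.4% of protein-coding genes whose ratio was not exactly 1.

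Gnas, which encodes the stimulatory subunit used by the melanocortin and GLP-1 receptors, had a ratio of 1.40, and Gnal, which encodes the olfactory and striatal form Gαolf, had 1.26. Gnao1, the most abundant Gα gene of brain, stood at 1.43 and Gnai1 at 1.36, while Gnai3 was below input at 0.793. Of the q class, Gna11 was at 1.43 and Gnaq at 1.13, and the 2 genes are thought to be largely interchangeable in coupling to phospholipase C. Exons of Gnas overlap opposite-strand transcripts of its imprinted locus over 13.1% (Gm20721) and 8.83% (Nespas) of their length, and the counting is not stated to use strand, so part of its reads could belong to these.

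The lowest Gα genes were Gnat1 at 0.501, Gna15 at 0.563 and Gna12 at 0.704. Gnat1 encodes the transducin of rods and Gna15 a q-class subunit of blood cells. Gnat2, the transducin of cones, was above input at 1.45. Both genes of the Gna12 and Gna13 class were below input, Gna13 at 0.816 and Gna12 at 0.704. The median of that class was 0.760, against 1.33 for the 2 genes of the s class, 1.39 for the 8 genes of the i/o class and 1.28 for the 4 genes of the q class.

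All 5 Gβ genes were above input, against 53.9% of all protein-coding genes, 13.7% of which were at exactly 1. Gnb3 had a ratio of 5.45, the highest of the 54 members and higher than 98.9% of protein-coding genes whose ratio was not exactly 1. It encodes the Gβ of cones and taste cells and lies on chromosome 6 of GRCm38 from 124834240 to 124840275 (ENSMUSG00000023439, minus strand), with no exon shared with another annotated gene. Its ratio exceeded that of Isl1, a transcription factor among the POMC neuron markers. Since the 7 ratios sum to 38.2, a single pool could in principle carry the whole of this mean. Gnb2 followed at 1.56, Gnb1, the predominant Gβ of most tissues, at 1.31, Gnb5 at 1.25 and Gnb4 at 1.06.

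Gγ genes fell on both sides of input, with 7 of 12 above and 5 below. The share above was 58.3%, against 53.9% of all protein-coding genes. None of the Gγ genes was at exactly 1, whereas 13.7% of all protein-coding genes were, which lowers the 53.9%. Of the 18379 protein-coding genes not at exactly 1, 11474 were above input. The highest were Gng3 at 2.16 and Gng4 at 2.05, both mainly neuronal, and Gngt1, the Gγ of rods, at 1.71. Gng10 had a ratio of 1.61 and Gng2, a common Gγ of brain, 1.45. Gng7, the striatal partner of Gαolf, stood at 1.14 and Gng5 at 1.03. Gng13, known from taste cells and retinal bipolar cells, was slightly below input at 0.921.

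The lowest of the Gγ genes were Gng11 at 0.486, Gng12 at 0.502 and Gngt2, the Gγ of cones, at 0.576. Gng11 had the lowest ratio of all members. Gng11 and Gng12 are known from cells outside the neuronal lineage, such as endothelium and glia, and the part of such cells in their ratios was not tested. The glial lists had medians of 0.398 for astrocyte, 0.457 for oligodendrocyte and 0.464 for microglia markers. The endothelial and mural list had a median of 0.971 and ran from Cdh5 at 0.350 to Pecam1 at 1.55. Gng8, known from olfactory and habenular neurons, was also below input at 0.601. Of the Gγ genes, 4 were at least 1.5-fold above input and 4 as far below it, or 33.3% each. Among all protein-coding genes these shares were 20.5% and 9.98%. Relative to the median protein-coding gene, the median of the family was 0.947, whereas before this scaling it was 1.08.

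Some Gγ values rest on shared exons. Gng10 shares 72.0% of its exon bases with the same-strand gene Gm20503, which the annotation lists as protein-coding. Gng13 shares 51.6% with Chtf18, Gng3 24.2% with Bscl2 and Gng2 20.4% with Gm48283, all on the opposite strand. Their reads may therefore be divided between 2 genes or, without strand, not told apart from their partners'. In all, 19 of the 54 members share exon bases with another annotated gene.

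**Figure D2:**
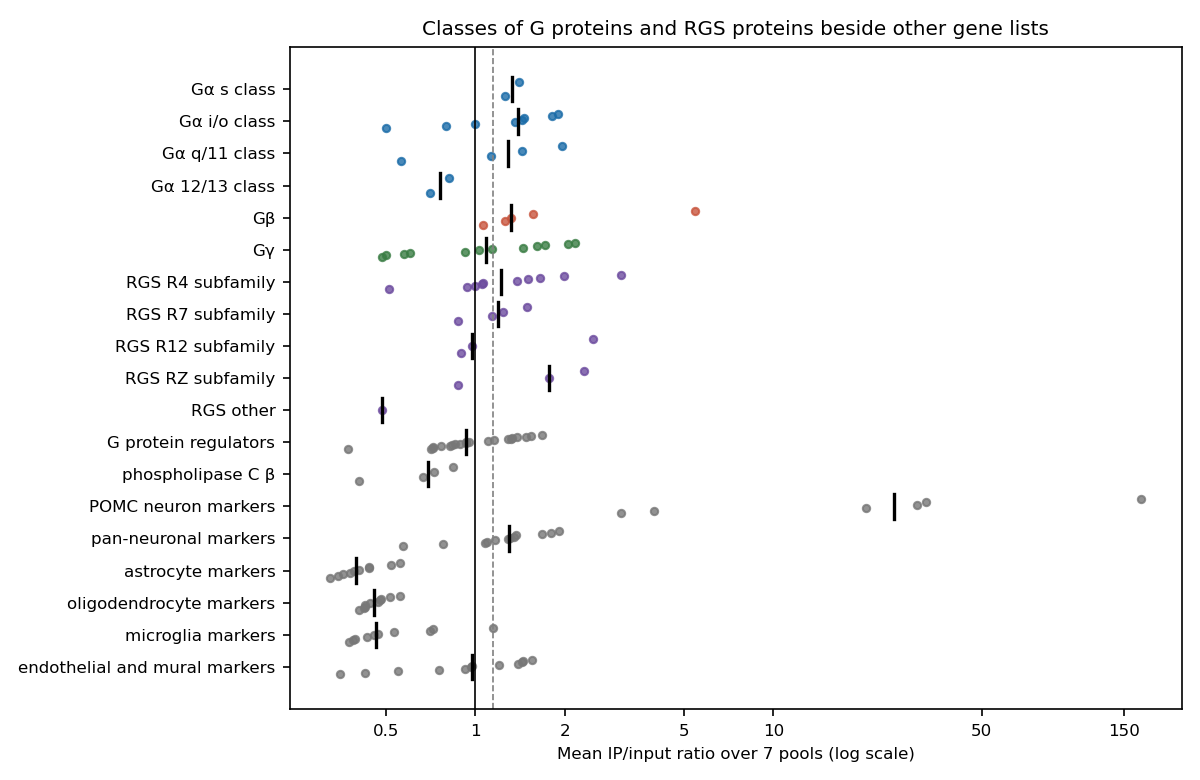
Mean IP/input ratio (log scale) of each gene by class, with classes of G proteins and RGS proteins in colour and other gene lists in grey. Points are genes, short vertical bars medians, the solid line a ratio of 1 and the dashed line the median protein-coding gene at 1.14. The Gα 12/13 class (median 0.760) lies below input. The medians of the glial marker lists lie between 0.398 and 0.464, while POMC markers have a median of 25.3.

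The Rgs genes comprised 13 above input (61.9%, against 53.9% of all protein-coding genes), 7 below and Rgs21, known from taste cells, at exactly 1. That ratio was found in 4.76% of the Rgs genes but in 13.7% of all protein-coding genes, which lowers the 53.9% more. The median of the Rgs genes was 1.14. Relative to the median protein-coding gene whose ratio was not exactly 1 this median was 0.997, and 1.04 with Rgs21 left out as well. The highest were Rgs1 at 3.09, Rgs14 at 2.47 and Rgs20 at 2.31, which were higher than 97.1%, 95.1% and 94.1% of protein-coding genes whose ratio was not exactly 1. Rgs1 is best known from lymphocytes and microglia. The ratios of the 10 microglia markers had a median of 0.464 and reached 1.15 at most, lymphocyte markers were not listed, and the cell source of Rgs1 was not tested. Rgs14 carries an RGS domain and a GoLoco motif that binds Gαi, and Rgs20 belongs to the RZ group, whose members act on Gαz. The lowest were Rgs22, known from testis, at 0.487, Rgs5 at 0.514 and Rgs6 at 0.874.

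By subfamily, the 3 RZ genes had the highest median, 1.77, with Rgs20 at 2.31, Rgs19 at 1.77 and Rgs17 below input at 0.874. Gnaz, which encodes their substrate Gαz, was itself among the highest Gα genes at 1.89. The 10 R4 genes, small proteins built of little more than the RGS domain, had a median of 1.22 and the widest range. Rgs4, an abundant neuronal member, had 1.64, Rgs2, which acts preferentially on Gαq, 1.501, and Rgs16 1.38. Rgs3 stood at 1.06 and Rgs8 at 0.935. Rgs5, a marker of pericytes, was far below input at 0.514, but the mural markers of the list were not of one direction. Vtn stood at 0.427, Pdgfrb at 0.549 and Abcc9 at 0.752, and Myh11, Acta2 and Kcnj8 at 1.39, 1.43 and 1.45.

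The blood cell members of the R4 group need to be read with care. Rgs13, known from B cells and mast cells, had a ratio of 1.98 and Rgs18, known from platelets, 1.05. For both, the sum over the pools is one that fewer than 3 reads in every library can give, if 1 is added to each count before division. Such sums were found in 3.70% of the members, leaving aside those at exactly 1, and in 6.33% of all protein-coding genes. They include that of Map2, an abundant neuronal transcript, so a match does not show that the reads were few.

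The R7 proteins bind Gβ5 through a domain that resembles Gγ and regulate Gαi and Gαo in neurons. Rgs11 had a ratio of 1.49, Rgs7 1.23 and Rgs9, the form of striatum and retina, 1.14, and Rgs6 was below input at 0.874. Gnb5, their obligatory partner, had 1.25. Their membrane anchors, which are no members, were on opposite sides of input, with Rgs9bp at 1.53 and Rgs7bp at 0.720, and the receptor-like partners Gpr179 and Gpr158 were at 1.48 and 1.28. In the R12 group, Rgs14 stood apart at 2.47, against 0.973 for Rgs12 and 0.893 for Rgs10, which is prominent in microglia.

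Other genes of the pathway were compared by counts. The single genes named here, other than the extremes, were picked after their values were seen. Set against 35 members above and 17 below input, 9 of 21 regulators of G protein signalling were above input and 12 below, with a median of 0.929. Among all protein-coding genes, 13.7% of them at exactly 1, 53.9% were above and 32.4% below input. Their median was 1.05, or 1.14 without those at exactly 1. Grk6, a kinase that desensitizes receptors, was highest at 1.67. The arrestins were split, with Arrb2 at 1.37 and Arrb1 at 0.886. Ric8a and Ric8b, chaperones of newly made Gα subunits, had 1.32 and 1.15, and Gpsm2, a GoLoco protein of spindle orientation, was lowest at 0.375. All 4 phospholipase C β genes, the effectors of Gαq, were below input, against 32.4% of all protein-coding genes. They ran from Plcb3 at 0.405 to Plcb4 at 0.843.

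Many of these genes lie close to another member in the genome. The 54 members lie on 18 chromosomes. In the GENCODE M21 annotation of GRCm38, 11 pairs of successive members are separated by 200 kb or less, whether or not other genes lie between them. In 7 of the 11 pairs, or 63.6%, one gene was above and the other below input. Of the 19597 pairs of directly adjacent protein-coding genes no further apart, 34.6% were so split. The 2 shares are not like for like, since other genes may lie between the members of a pair. Genes at exactly 1, which cannot be split, are also 13.7% of all protein-coding genes but 3.70% of the members. Some pairs share a gene, and the difference between the shares was not tested. On chromosome 9, Gnai2 (107614125 to 107635367) had 1.80 and Gnat1 (107674474 to 107679712) 0.501, a 3.60-fold difference and the widest of the 11 pairs. On chromosome 6, Gngt1 (3993792 to 3997436) had 1.71 and Gng11 (4003904 to 4008445), only 6.47 kb away, 0.486. On chromosome 1, Rgs4 (169741477 to 169747642) had 1.64 and Rgs5 (169655501 to 169695813) 0.514.

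Pairs in which both genes were above input also occur. Gna14 (chromosome 19, 16435762 to 16610820) had 1.95 and its neighbour Gnaq (16132831 to 16387463) 1.13. In the Rgs cluster of chromosome 1, Rgs1 (144242296 to 144249242) had 3.09, Rgs13 (144138654 to 144177372) 1.98 and Rgs2 (143999338 to 144004161) 1.501. Further along the same chromosome, Rgs16 had 1.38 and its neighbour Rgs8 0.935. On chromosome 10, Gna11 had 1.43 and Gna15, 4.50 kb away, 0.563, and on chromosome 3, Gnat2 had 1.45 and Gnai3, 5.85 kb away, 0.793.

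**Figure D3:**
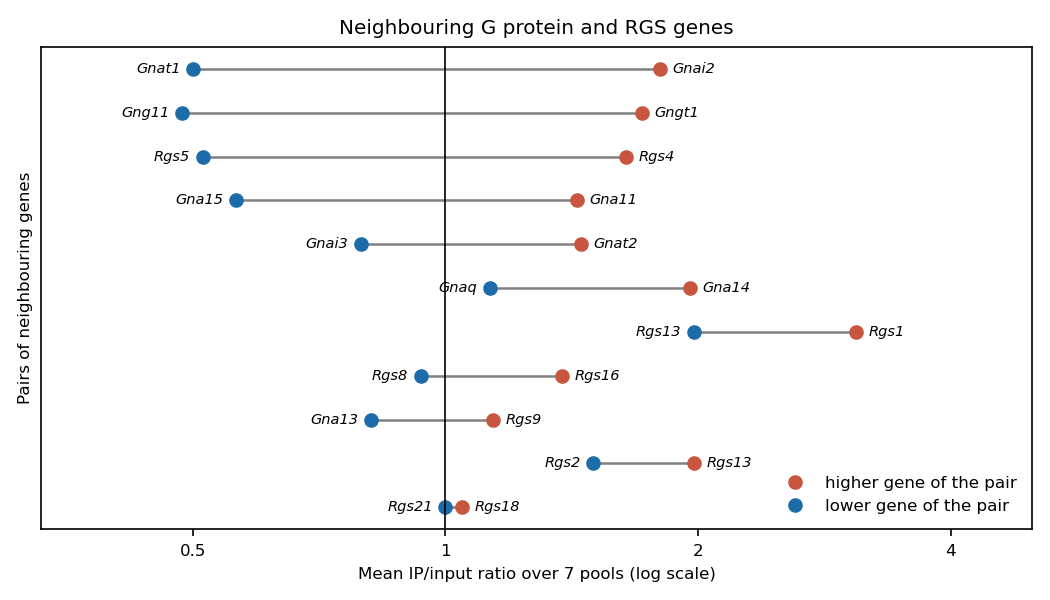
Mean IP/input ratio (log scale) of the 11 pairs of successive G protein and Rgs genes at most 200 kb apart, ordered by the fold between the genes of a pair. Other genes may lie between those of a pair. Red points are the higher and blue points the lower gene, and the vertical line is a ratio of 1. Gnai2 (1.80) and Gnat1 (0.501) differ most.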

How the data were processed

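RNA was sequenced from 14 libraries, an IP and an input library of each of 7 pools. According to the study's methods, STAR placed the reads on GRCm38.p6, Salmon (0.14.1 in the submitters' processing notes) gave gene counts, and each pool's IP count was taken over its input count. The sources differ on the Ensembl release. The authors' deposited table comes from DESeq2 (1.26.0). The score that the authors deposited for each gene is the mean over the 7 pools of these ratios, normalized to nothing but input. It is on a scale of 1000, and 7 times its value was whole in 100% of genes (tolerance 1e-05). Exactly 1 was found for 13059 genes. Sums lower by 0.5 (1162 genes) were more frequent than sums higher by 0.5 (125 genes), as 1 read in the input gives if 1 is added to whole counts that are not scaled to library size. The ratios thus also carry library depth, which is not known. The other columns hold the authors' comparison of the 2 lines (log2 fold change, standard error, statistic and p-values) and were not used, so no test was made.

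Ratios were divided by 1000, ranked among the 18379 protein-coding genes whose ratio was not exactly 1, and counted by class. Coordinates and exon overlaps come from GENCODE M21, in which all 54 members were found. Sums that counts below 3 can give were listed with a pseudocount of 1, a step tested on simulated data. The rule was to name every member and to describe the 3 highest and 3 lowest of each family. Other genes come from 8 further lists, and those picked out of these lists were chosen after their values were seen, beyond Pomc and the extremes. The members and lists were chosen with earlier results of these data known. Alternatives were another reference level, a 1.5-fold threshold and the leaving out of members near 1, with few-read sums or with shared exons, the last 2 chosen after seeing the data. Python 3.11.15 was used, with pandas 2.3.3, numpy 2.4.6 and matplotlib 3.10.9.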

Additional observations from a re-analysis of the deposited data

How the results depend on the processing

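The count of members above input (35) stayed within 1.5 times under another reference level (28), without members within 0.05 of 1 (33), without those with sums that few reads can give (33) and without those sharing exons (24), the last 2 chosen after seeing the data. These settings raise the bar or leave members out, so the count could only fall. Its stability therefore does not bear on how the members compare with all protein-coding genes. With a threshold of 1.5-fold in place of any excess the count was 16, lower by construction. The median of all members was 1.24, and 1.26 without members at exactly 1. It was 1.26 without few-read sums and 1.14 without members sharing exons, both chosen after seeing the data. The last equals, to 2 decimals, the 1.14 of the median protein-coding gene not at exactly 1. Divided by that gene, the median of all members was 1.09. Divided by the median protein-coding gene, the median of the Gγ genes was 0.947 and that of the Rgs genes 0.997, both on the other side of 1. With members at exactly 1 also left out, as they are from that reference, the Gγ median was again 0.947 but that of the Rgs genes was 1.04, an alternative chosen after seeing the data. The medians of the Gα genes (1.14) and the Gβ genes (1.15) stayed above 1. No paired analysis was possible because the deposited mean covers all pools, and for the same reason no pool could be left out. No ratio has an error, depth is unknown, and a mean of ratios can rest on 1 pool.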
